A study of Mus musculus with 16 samples.

Results

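The 9 genes described here, Snhg1, Snhg3, Snhg5, Snhg6, Snhg8, Snhg12, Snhg15, Gas5 and Zfas1, are long non-coding RNA genes of the mouse whose introns carry small nucleolar RNAs (snoRNAs). They were chosen by name, as the rows of the gene and exon tables whose Ensembl identifiers map to these symbols, and all 9 were found among 53333 rows of the gene table. RNA was measured by sequencing ribosome-depleted total RNA of mHiPPoE-2 cells, a transformed line of mouse hippocampal neurons (strain Crl:CFW(SW)-024) kept in culture with no treatment. The study asked how loss and return of RBM45, an RNA-binding protein, and loss of METTL3, which puts N6-methyladenosine marks on RNA, change the transcriptome. There were 16 libraries in 8 groups of 2. They were unedited cells (WT), 1 clonal isolate with a Cas9-guided METTL3 knockout (METTL3 KO), 2 clones that received Cas9 without a guide RNA (Cas9 control), 2 clones with a Cas9-guided RBM45 knockout (RBM45 KO), and 2 clones of the RBM45 knockout that also carry F-HA-tagged RBM45_mut[delta]gRNA (KO rescue). METTL3 KO rested on 1 clone and WT was not cloned. Nothing in the labels says that the 2 libraries of a group came from separate cultures, so p-values from comparisons of libraries rest on a spread that may be technical.

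A snoRNA host gene is transcribed and spliced like other genes, and most of its snoRNAs are cut out of the introns after splicing, trimmed at both ends by exonucleases and kept as particles with core proteins. Box C/D snoRNAs guide methylation of ribosomal RNA and box H/ACA snoRNAs guide its pseudouridylation and a few, among them Snora73 and Snord22, are known instead from cleavage of the ribosomal precursor RNA. The spliced exons of several hosts, such as Gas5, Zfas1 and Snhg1, hold short reading frames that end early and are degraded by nonsense-mediated decay during translation, and many host promoters give transcripts that start with a run of pyrimidines (a 5' terminal oligopyrimidine, or TOP, tract).

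Because the transcript start is where a TOP tract would lie, the 60 bases around the RefSeq start (GRCm38.p6, 30 before and 30 from the start on) were searched for a C followed by at least 4 of C or T within 20 bases of the start on the transcribed strand. Windows were held for 8 of the 9 members, 2 of them for Gas5, and 5 of the 9 windows had such a run, while 45.9% of 32851 promoter windows of all genes had one. The 4 windows with the run nearest to the start and those of Snhg1 and Zfas1, 2 hosts that differed between control clones, are shown, with the run in capitals. They lie at chr3:123508307-123508366 (- strand) for Snhg8, chr4:132308648-132308707 (+) for Snhg12, chr1:161035136-161035195 (+) for the downstream start of Gas5, chr4:132353657-132353716 (-) for Snhg3, chr19:8723457-8723516 (+) for Snhg1 and chr2:167062904-167062963 (+) for Zfas1.
Snhg8: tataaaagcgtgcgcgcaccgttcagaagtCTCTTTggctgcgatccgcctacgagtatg
Snhg12: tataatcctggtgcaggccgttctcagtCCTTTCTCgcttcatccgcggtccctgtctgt
Gas5: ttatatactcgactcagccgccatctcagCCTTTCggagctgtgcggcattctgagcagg
Snhg3: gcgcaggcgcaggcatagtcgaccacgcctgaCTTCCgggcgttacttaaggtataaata
Snhg1: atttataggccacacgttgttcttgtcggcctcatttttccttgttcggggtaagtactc
Zfas1: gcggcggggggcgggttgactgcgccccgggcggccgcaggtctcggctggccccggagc
The run began at base 1 of the Snhg8 transcript, at base -2 for Snhg12, at base -1 for the downstream Gas5 start and at base 3 for Snhg3. The Snhg1 and Zfas1 windows, and the upstream one of Gas5, held no run of that kind. The Zfas1 window lay at the annotated start of the host, where few reads were counted. Stretches of the exon table that begin 0 and 82 bases from that start averaged 0.188 and 0.938 counts over the 16 libraries. The stretch that begins at 299 bases averaged 18.1. A start further downstream in Zfas1 was not searched. A match is a description of letters, not of a site in use.

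The hosts carried 33 snoRNA entries of GENCODE mouse release 21, from 1 in Snhg6, Snhg8 and Snhg15 to 8 in Snhg1 and 10 in Gas5, where the entry named Mir5117 is also typed as a snoRNA. TGATGA, the usual form of box C, was found on the transcribed strand in 21 of the 33 and in 26.1% of 1507 annotated mouse snoRNAs. CTGA, the form of box D, stood within the last 15 bases of 25 of the 33 and of 31.4% of all. ACA 3 bases from the end, as in H/ACA snoRNAs, was found in 8 of the 33 and in 18.3% of all. The 3 snoRNAs whose introns ranked highest among the RefSeq introns below are shown with ACA or CTGA in capitals, from GENCODE on GRCm38. Snora73a lies at chr4:132352775-132352979 (-) and Snora73b at chr4:132352322-132352526 (-), both in introns of Snhg3. Snord22 lies at chr19:8725866-8725991 (+) in an intron of Snhg1.
Snora73a: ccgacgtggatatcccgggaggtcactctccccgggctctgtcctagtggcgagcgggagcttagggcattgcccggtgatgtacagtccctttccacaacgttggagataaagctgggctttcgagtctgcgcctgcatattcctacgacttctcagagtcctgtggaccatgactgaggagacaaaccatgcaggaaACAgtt
Snora73b: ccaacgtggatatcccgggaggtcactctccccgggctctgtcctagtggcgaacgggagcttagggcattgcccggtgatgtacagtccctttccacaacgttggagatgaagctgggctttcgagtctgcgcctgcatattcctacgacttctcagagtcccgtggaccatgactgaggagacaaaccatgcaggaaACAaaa
Snord22: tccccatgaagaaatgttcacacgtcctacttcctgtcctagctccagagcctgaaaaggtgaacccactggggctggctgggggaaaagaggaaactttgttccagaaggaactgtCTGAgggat
The 2 copies of Snora73 were identical at 198 of 205 positions (96.6%, ungapped), with a longest shared run of 56 bases. Multi-mapping reads were not counted, so counts of the 2 copies rest on reads that could be told apart and are uncertain as levels.

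Library totals in the gene table were 7193908 to 18751324 counts (median 12883429), and the 12 rows that took at least 0.5% of any library held 53.3% to 70.6% of them. The targeted genes were lower in their knockouts, with no overlap with the Cas9 controls for Rbm45 or with WT for Mettl3, and were not at 0. Rbm45 averaged 8.04 ± 2.08 CPM (SD, n = 4) in RBM45 KO, 14.7 ± 1.90 (n = 4) in the controls and 23.2 ± 2.05 (n = 4) in KO rescue, and Mettl3 averaged 3.53 ± 0.255 CPM (n = 2) in METTL3 KO and 10.2 ± 2.03 (n = 2) in WT. CPM are counts scaled to a common library size, with TMM factors. Of 10 neuron markers, Map2 and Tubb3 averaged at least 1 CPM, and Stmn2, Nefl and Dcx were at 0 in every library. The summed CPM of the neuron markers, mostly Map2, ran from 40.7 to 139, and that of 6 fibroblast or mesenchyme markers, mostly Col1a1, from 35.99 to 1431. Of 5 microglia markers Cx3cr1 and Csf1r averaged at least 1 CPM, and of 5 astrocyte markers Slc1a3 did (mean 4.58 CPM, 0 to 24.5), while no oligodendrocyte or endothelium marker did.

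On GRCm38 the hosts lie at chr19:8723475-8726443 (+, Snhg1), chr4:132348014-132353686 (-, Snhg3), chr9:88521050-88522929 (-, Snhg5), chr1:9941959-9944118 (-, Snhg6), chr3:123507552-123508404 (-, Snhg8), chr4:132308623-132311024 (+, Snhg12), chr11:6525591-6528760 (-, Snhg15), chr1:161034422-161038539 (+, Gas5) and chr2:167062934-167065862 (+, Zfas1). The library kit did not mark the strand, per the labels, while counting used a strand setting, per the file headers. Reads of Snhg3, Snhg6, Gas5 and Zfas1 therefore could not be told apart from those of the genes antisense to them, Gm17300, Mcmdc2, Zbtb37 and Znfx1, and values of these hosts are uncertain to that extent. The Zfas1 row also joins Gm27494.

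All 9 hosts were detected in every library. Ranked by gene-body CPM per kb of row, which counts each fragment once and includes introns, Gas5 led with 9.14 ± 0.984 (SD, n = 16 libraries), followed by Snhg1 with 6.85 ± 1.24, and Gas5 was above Snhg1 in 14 of 16 libraries. Snhg1 was above the next host, Snhg5, in all 16. The 5 hosts in the middle, Snhg5 (3.58 ± 0.756), Snhg8 (3.52 ± 1.02), Snhg3 (3.47 ± 0.841), Snhg12 (3.44 ± 0.777) and Zfas1 (3.18 ± 0.559), each stood above their neighbour in only 7 to 9 of 16 libraries and did not differ beyond their spread. Snhg6 (2.55 ± 0.515) lay below Zfas1 in 12 of 16, and Snhg15 (1.58 ± 0.265) was the lowest, below Snhg6 in 14 of 16. The value of Snhg3 is diluted and mixed, because its row of 21768 bases joins Snhg3 with Rcc1, the nucleotide exchange factor of Ran, and with Snora73a.

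Between libraries, gene-body CPM varied least for Gas5, whose spliced exons are a known target of nonsense-mediated decay, with a lowest library of 30.1 CPM, a median of 38.8 and a highest of 44.6 (1.48 times the lowest). They varied most for Snhg8, which carries Snora24, with a lowest library of 1.74 CPM, a median of 2.79 and a highest of 4.61 (2.64 times the lowest). The other 7 hosts lay between these 2 in that ratio.

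**Figure D1:**
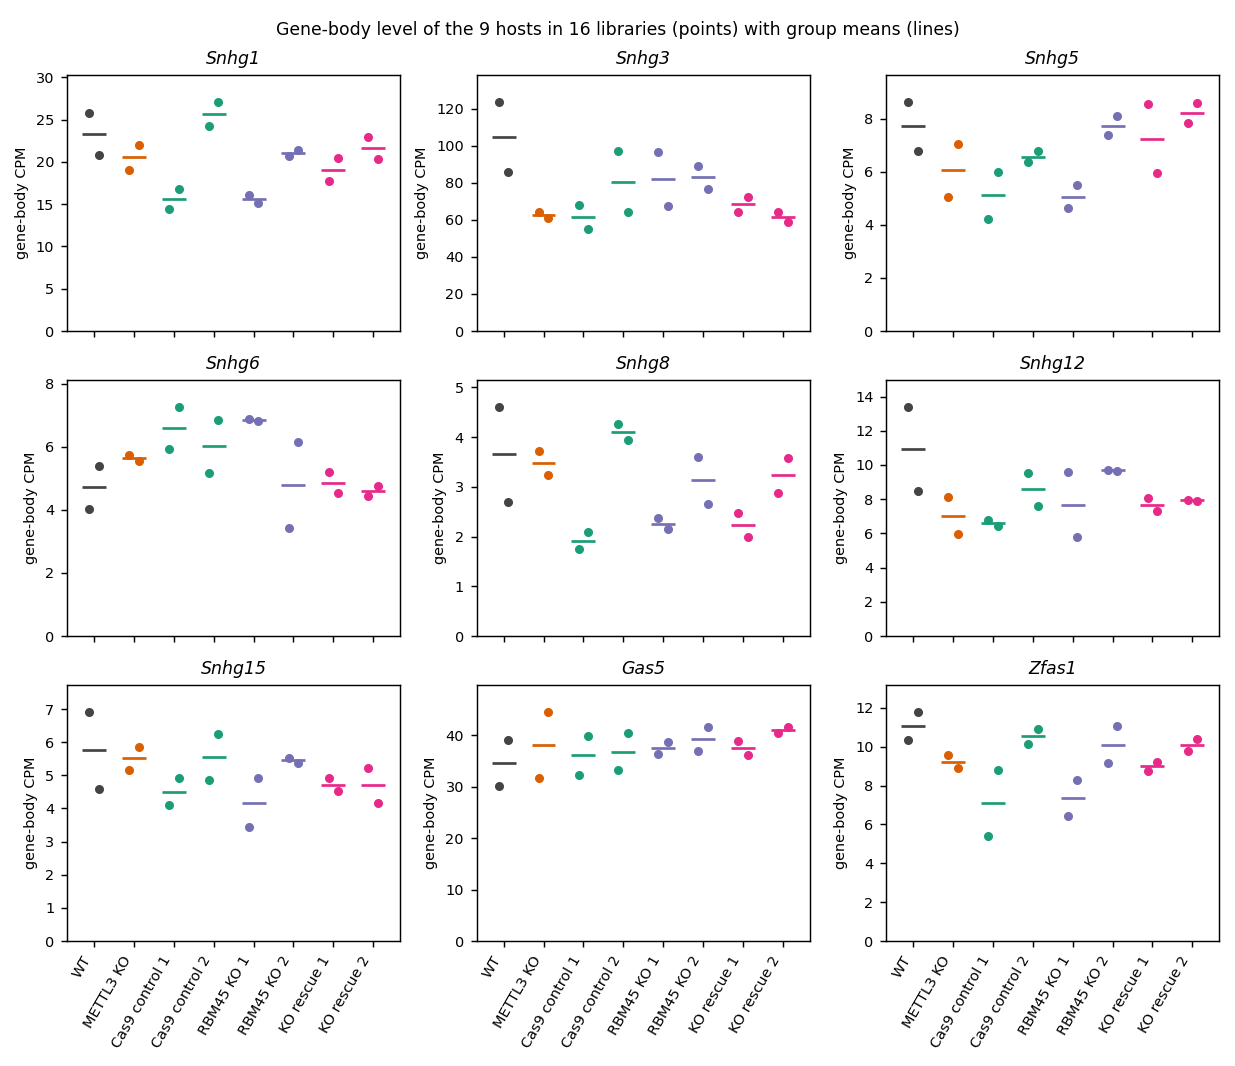
Gene-body CPM (y axis, linear from 0) of the 9 hosts in the 8 groups (x axis); each point is 1 library and each line the mean of 2 libraries. Snhg3 reaches 124 CPM in WT replicate 1, and Snhg1 and Snhg8 lie higher in both libraries of Cas9 control clone 2 than in those of clone 1.

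Within the rows, the exon table split each host into short bins, and a fragment was counted in every bin that held at least 0.1 of it, so only single bins and not their sums were compared as levels. A bin was called a spliced exon when at least 0.5 of the spliced transcripts of the host contain it, a snoRNA when more than 0.5 of it lies in an annotated snoRNA, and an intron otherwise. There were 287 bins in the 9 rows, of 468583 in the table. The deepest bin of a part is here the one with the highest mean count, not adjusted for the length of the bin. In Gas5 the deepest bin was a spliced exon of 37 bases with a mean of 119 counts (lowest library 55, highest 187), and the deepest snoRNA bin, of Gm22357, had 44.6. The deepest spliced-exon bin was above the deepest snoRNA bin in Zfas1 too (33.9 counts in 92 bases against 10.2 in 93 for Gm25878). The same held in Snhg5 (28.9 in 264 bases against 4.88 in 72 for Snord50b) and Snhg8 (28.7 in 219 bases against 5.44 in 130 for Snora24). Snhg6 and Snhg15 had their highest counts in intron bins of 326 and 709 bases (19.4 and 14.9 counts). Their deepest spliced-exon bins, of 108 and 226 bases, had 18.9 and 14.4. These intron bins are the longer ones, so per base the spliced-exon bins of both hosts were the deeper.

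Snhg3 stood the other way round. Its Snora73a bin of 159 bases had a mean of 277 counts (194 to 322 over the 16 libraries), far above the 30.8 counts (14 to 56) of its deepest spliced-exon bin of 122 bases, and the ranges did not overlap. Snora73b has a row of its own in the gene table and had a mean of 342 counts (248 to 424). In Snhg1 the Snord22 bin of 67 bases had 57.4 counts (35 to 87), above the mean of 47.2 counts (16 to 86) of its deepest spliced-exon bin with ranges that overlapped, while the other 7 snoRNAs of Snhg1 had 5.31 to 12.5. These were the only 2 hosts in which a snoRNA bin was deeper than every spliced-exon bin, and outside Gas5 no other host snoRNA had a bin mean above 18.6 counts (Snora61 in Snhg12).

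In the intron table, where each RefSeq intron is 1 feature, the introns of the same snoRNAs and of Snora73b ranked highest among the 32 listed. Snhg3 intron 2, which holds Snora73b, had 833 counts per kb (mean of 16 libraries), and intron 1, which holds Snora73a, had 338. Snhg1 intron 8, which holds Snord22, had 274. The other introns of the hosts ran down to 7.80 in intron 3 of Snhg15, which holds no snoRNA, and the median of the 30 introns outside Snhg3, Snhg1 intron 8 included, was 42.7 counts per kb. RefSeq gave 32 introns for 8 hosts and none for Snhg8. For Gas5 it gave only those with Snord80, Snord47 and Gm25789, so its other introns were not ranked and are not in the median. The deepest intron bin of Gas5 in the exon table, of 304 bases, had a mean of 74.3 counts.

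**Figure D2:**
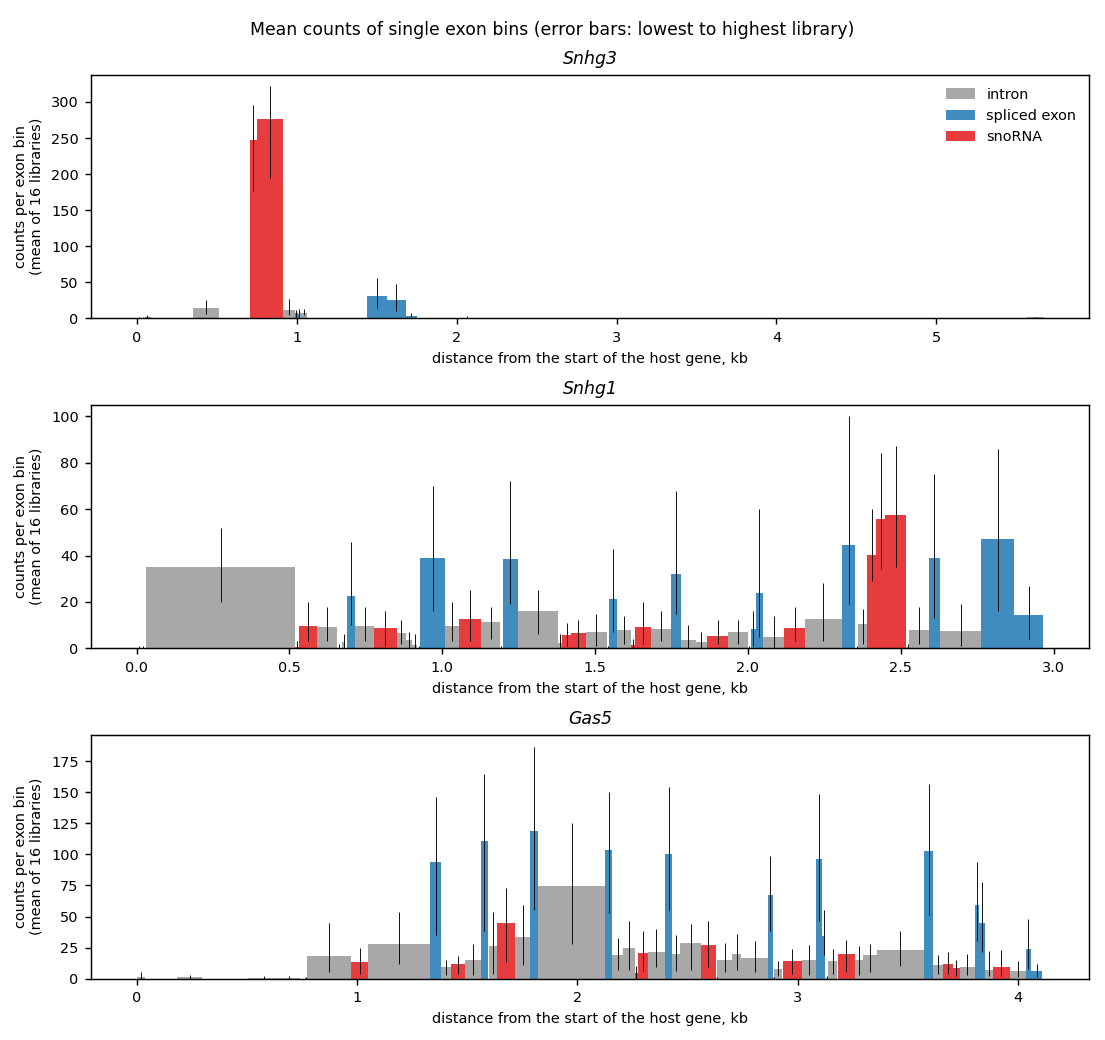
Mean count of each exon bin over 16 libraries (y axis, linear, error bars from the lowest to the highest library) against distance from the start of the host in kb (x axis), for Snhg3, Snhg1 and Gas5; bar widths are bin lengths. The red Snora73a bins of Snhg3 reach 277 counts, and in Gas5 the blue spliced-exon bins reach 119 while snoRNA bins stay at or under 44.6.

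METTL3 KO was compared with WT over 2 libraries a side, in a fit across all 16 libraries (edgeR quasi-likelihood test, Benjamini-Hochberg adjusted p under 0.05). Snhg3, the host of both Snora73 copies, was the only member that passed in this fit. Its gene-body values were 124 and 85.6 CPM in WT and 64.2 and 60.7 in METTL3 KO, so both knockout libraries lay below both WT libraries. The log2 fold change was -0.74 (SE 0.21, adjusted p = 0.0168). That is 1 of 9 members, and 22.9% of the 16223 rows tested passed in this comparison. The call did not hold without WT replicate 1 (-0.46, adjusted p = 0.203), METTL3 KO replicate 1 (-0.78, 0.0704) or METTL3 KO replicate 2 (-0.71, 0.110).

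Snhg12, which carries Snora16a, Snora44, Snora61 and Snord99, had 13.4 and 8.49 CPM in WT and 8.10 and 5.97 in METTL3 KO. Both WT libraries were above both knockout libraries here too, and the log2 fold change of -0.64 (SE 0.24) missed the threshold (adjusted p = 0.0659), while with no low-count filter it passed. Groups without overlap were found in 4 of 9 members and in 62.5% of all rows tested. Over all members the log2 fold changes had a median of -0.16, against 0.01 for all rows, and 2 of 9 were above 0, Snhg6 (0.23) and Gas5 (0.15). The summed fibroblast markers were at 92.3 to 125 CPM in WT and 353 to 394 in METTL3 KO. In the same order, the summed neuron markers were at 40.7 to 67.9 and 80.2 to 88.1. The astrocyte markers were at 8.64 to 14.3 and 2.81 to 2.93, and the microglia markers at 42.5 to 59.02 and 34.09 to 34.14. Over the 16 libraries 1 gene made up most of each of these 3 sums. These genes were Map2 (mean 84.1 CPM), Slc1a3 (4.58) and Cx3cr1 (38.0), so the sums largely follow single genes. The part of these lists in the differences was not tested. In bulk RNA, fewer cells of a kind and less RNA per cell cannot be told apart.

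The Snhg3 row was then split into Snhg3 exons, introns, the Snora73a bins and the bins outside Snhg3, which are exons of Rcc1, in an alternative added after seeing the data. The bins outside Snhg3 held 35.4% of the row's exon-bin counts and the Snora73a bins 53.5%. A fragment over several bins counts in each, so these are not shares of fragments. The CPM of a part are sums of its bins too, comparable between samples and not between parts. In CPM of the exon table, the Rcc1 bins were at 38.7 and 25.4 in WT and 13.9 and 19.3 in METTL3 KO, a log2 fold change of -0.91 (SE 0.20, edgeR adjusted p = 0.00439). The Snora73a bins were at 79.6 and 47.9 in WT and 44.3 and 39.3 in METTL3 KO, which gave -0.60 (SE 0.24, adjusted p = 0.0812), and the spliced exons of Snhg3 gave -0.42 (SE 0.33, adjusted p = 0.399). The part of the row that passed lay outside the host, and no spliced-exon, intron or snoRNA part of any member passed, where 20.1% of rows did. Without WT replicate 1 the Rcc1 part was -0.59 with an adjusted p of 0.0783, and without METTL3 KO replicate 1 it was -0.72 with 0.0666. Snora73b in its own row gave -0.65 (SE 0.27, adjusted p = 0.0948), from 44.8 and 32.96 CPM in WT to 27.9 and 21.8.

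The mean of Snhg3 was also below WT in the Cas9 control clones. Its gene-body CPM were 68.0 and 55.1 in clone 1 and 96.9 and 64.2 in clone 2, of which 1 overlapped the WT range. The log2 fold change against WT was -0.57 (SE 0.18, edgeR adjusted p = 0.0517), and DESeq2 called it. By gene bodies 0 of 9 members passed (2 at an unadjusted p under 0.05), with 8.99% of rows called. In exon sums, which add all bins of a row, Snhg3 passed at -0.57 (SE 0.16, adjusted p = 0.0308), with 8.22% of rows called, but not without WT replicate 1 (-0.23, adjusted p = 0.649), control clone 1 replicate 2 (-0.52, 0.106) or control clone 2 replicate 2 (-0.47, 0.104). Split into parts, the Snora73a bins (-0.68, SE 0.20, adjusted p = 0.0384), intron 1 (-0.63, SE 0.19, 0.0453) and the spliced exons of Snhg12 (-0.83, SE 0.21, 0.0181) passed, with 9.62% of rows called. Intron 1 of Snhg3 holds Snora73a, and its mean of 304 counts stands beside 277 in the deepest Snora73a bin. The calls of intron 1 and of the Snora73a bins therefore rest largely on the same reads. All 3 calls were lost without WT replicate 1, at -0.27, -0.27 and -0.30, and without control clone 1 replicate 1 (-0.72, -0.66 and -0.76). Those of the Snora73a bins and intron 1 were lost as well without control clone 1 replicate 2 (-0.63 and -0.60) or control clone 2 replicate 2 (-0.53 and -0.50).

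METTL3 KO against the 4 control libraries left no member past the threshold by edgeR (0 of 9, also 0 at an unadjusted p under 0.05 and 0 by DESeq2), where 30.6% of gene bodies and 27.5% of exon sums passed. Snhg3 was at -0.17 (SE 0.18) and Snhg12 at -0.12 (SE 0.21). The Rcc1 part of the Snhg3 row passed here too (-0.48, SE 0.18, edgeR adjusted p = 0.0456), but not without METTL3 KO replicate 1 (-0.29, 0.393), either replicate of control clone 1 (-0.44 and -0.53) or control clone 2 replicate 1 (-0.41). No part of the hosts themselves passed, where 30.6% of split rows did. Comparisons of METTL3 KO and of the controls with WT share the WT libraries, and both METTL3 KO comparisons share its libraries.

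**Figure D3:**
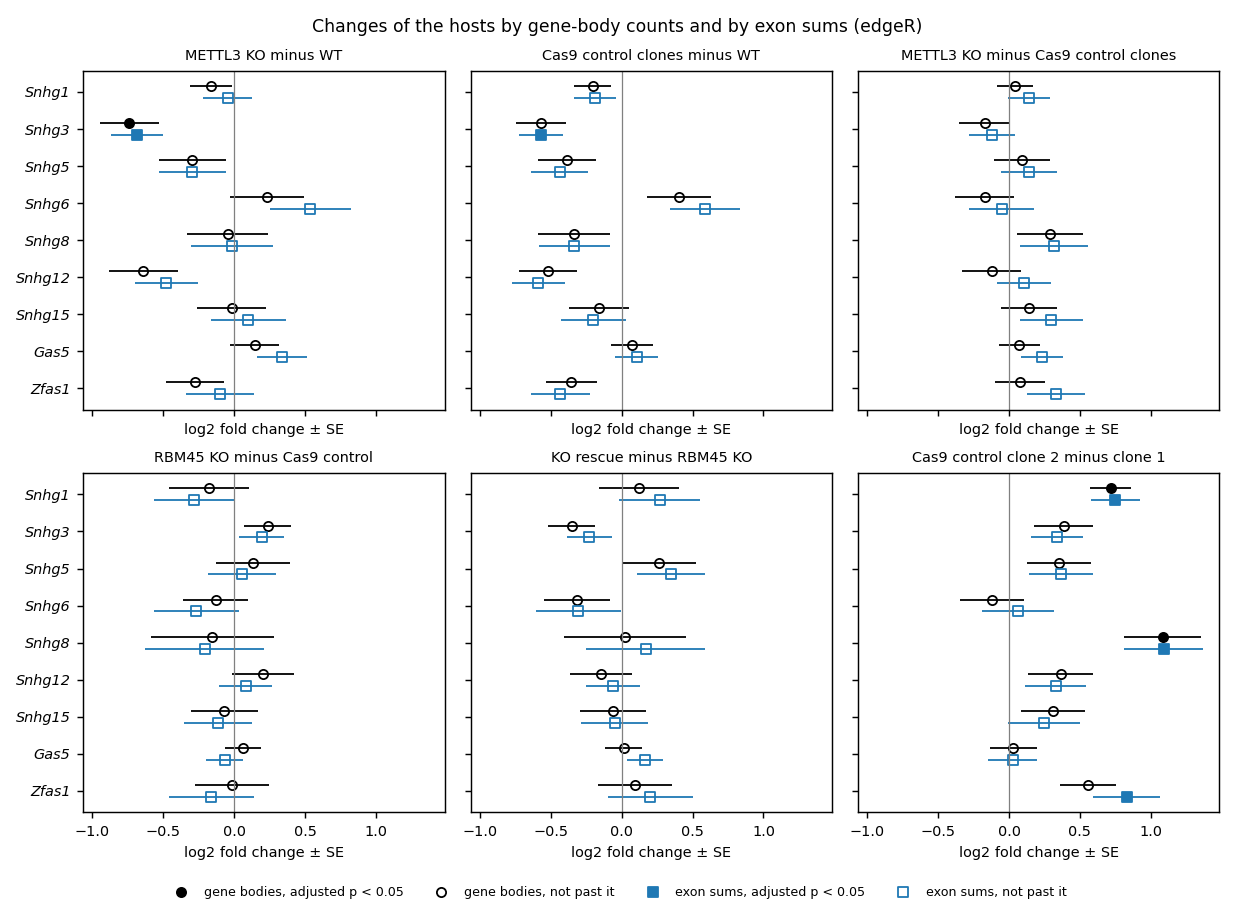
Log2 fold change ± SE (x axis) of each host (y axis) in 6 comparisons, from gene-body counts (circles) and exon sums (squares); filled symbols have an edgeR adjusted p under 0.05. Snhg3 is filled for both measures in METTL3 KO minus WT and for exon sums in controls minus WT; Snhg1 and Snhg8 are filled for both, and Zfas1 for exon sums, in control clone 2 minus clone 1.

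Loss of RBM45 was tested on the clone, the unit that was edited, with the 2 libraries of a clone added together. No member passed between RBM45 KO and Cas9 control (0 of 9 by edgeR, 0 at an unadjusted p under 0.05 and 0 by DESeq2), and neither did any other gene body (0% called, 983 rows at an unadjusted p under 0.05). Gas5 was the most tightly bounded. Its libraries were at 36.5, 38.6, 37.0 and 41.6 CPM in RBM45 KO and 32.4, 39.8, 33.3 and 40.4 in the controls. The ranges overlapped, and the log2 fold change was 0.06 (SE 0.13, 95% interval -0.35 to 0.47). Snhg8 was the least, at -0.15 (SE 0.43, -1.53 to 1.22). These intervals take only the residual degrees of freedom of the fit, without those that edgeR borrows across rows. They are therefore wider than its p-values imply.

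The row that joins Snhg3 with Rcc1 and Snora73a was higher in RBM45 KO in mean. It had 96.4 and 67.2 CPM in clone 1 and 89.2 and 76.8 in clone 2, against the control values above. The ranges overlapped and the log2 fold change was 0.24 (SE 0.16, interval -0.29 to 0.76, edgeR adjusted p = 0.768). In KO rescue it was at 64.3, 72.3, 64.4 and 58.99, which is -0.35 (SE 0.17, interval -0.88 to 0.17) against RBM45 KO, with an adjusted p of 0.665. For KO rescue against RBM45 KO and against control, 0 of 9 members passed (0 at an unadjusted p under 0.05, 0 by DESeq2), again with 0% of all gene bodies called (1239 and 2620 at an unadjusted p under 0.05). Exon sums called 0 members (edgeR, 0 at an unadjusted p under 0.05, 0 by DESeq2) and 0% of rows in these 3 comparisons (830, 775 and 2274 rows at an unadjusted p under 0.05). A p that misses the threshold does not show equal levels. By gene bodies the intervals, wide as computed here, allowed changes of over 0.5 on the log2 scale for all members but Gas5. Those of Gas5 did so by exon sums in both KO rescue comparisons.

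The exonic and intronic parts of the hosts were compared by the share of a host's exon-bin counts on its snoRNA and intron bins. Since a fragment counts in each bin it crosses, the share is comparable between samples and not between hosts. In Snhg15, which carries Snora9, the share was 43.9%, 49.6%, 36.2% and 39.3% in the control libraries, 65.9%, 53.3%, 55.9% and 61.1% in RBM45 KO and 51.2%, 51.3%, 53.8% and 54.5% in KO rescue. All RBM45 KO libraries lay above all control libraries. The exon-bin counts of Snhg15 averaged only 98.8 a library, so its shares are uncertain. WT was at 39.7% and 55.1% and METTL3 KO at 51.2% and 43.0%, so WT replicate 2 lay within the range of RBM45 KO. In Snhg1 it was 52.9%, 59.2%, 51.2% and 44.3% in the controls and 68.2%, 59.1%, 62.6% and 57.8% in RBM45 KO, where 2 RBM45 KO libraries lay below the highest control library.

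By clone means, the share was higher in RBM45 KO than in control for 8 of 9 members, by 16.8 percentage points in Snhg15 (59.03% ± 5.60 against 42.3% ± 5.84, SD, n = 4 libraries) and 10.0 in Snhg1 (61.9% ± 4.65 against 51.9% ± 6.13), and lower by 1.30 in Snhg6. In 5 of the 9, both RBM45 KO clones were above both control clones, which gives the smallest p that 2 clones against 2 allow (two-sided exact permutation p = 0.333). Over the 6696 rows in which spliced-exon bins and the other bins each averaged at least 10 counts, the members included, the share was higher in RBM45 KO in 48.6%, and both KO clones were above both control clones in 15.9%. With 36 comparisons over 4 contrasts, of which METTL3 KO against WT compared libraries and not clones, adjusted values were 0.923 or higher. In KO rescue the share was above RBM45 KO in 3 members and above control in 8, against 62.1% and 61.5% of those rows. The spliced exons of Snhg1, at 18.4, 19.6, 31.4 and 45.6 CPM of the exon table in the controls and 13.999, 16.7, 20.3 and 23.6 in RBM45 KO, gave a log2 fold change of -0.64 (SE 0.38, edgeR adjusted p = 0.825) and its snoRNA bins 0.32 (SE 0.25). No split row passed in the 3 RBM45 comparisons (0% called, 644, 550 and 1979 at an unadjusted p under 0.05).

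**Figure D4:**
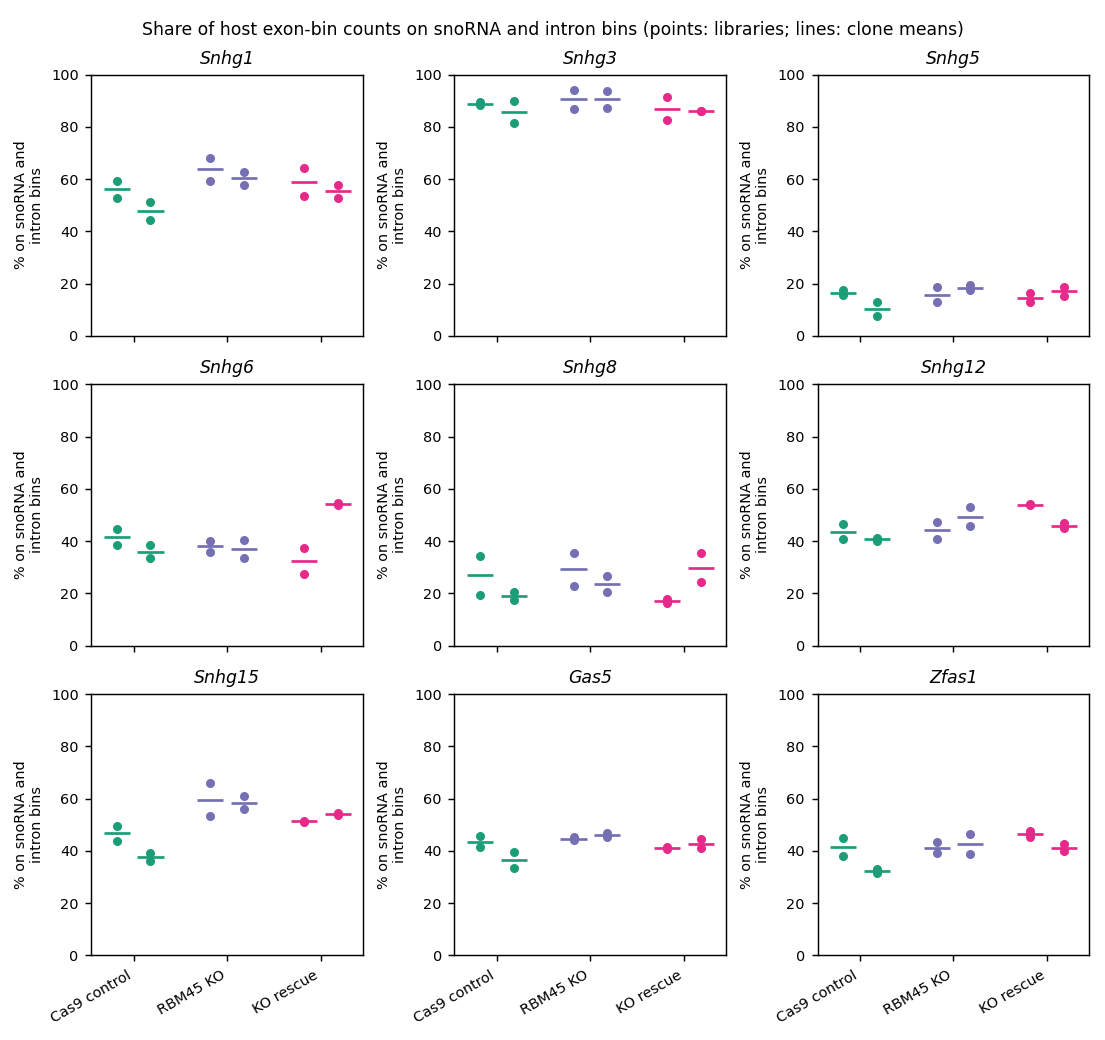
Percent of a host's exon-bin counts on snoRNA and intron bins (y axis, 0 to 100) in Cas9 control, RBM45 KO and KO rescue (x axis), with 2 clones side by side; points are libraries and lines are clone means. Snhg15 is the host with the largest difference, 59.03% in RBM45 KO against 42.3% in control, on a mean of 98.8 exon-bin counts a library.

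Between the 2 control clones, which share their genotype, Snhg1 and Snhg8 passed the test. Snhg1 was at 14.5 and 16.8 CPM in clone 1 and 24.3 and 27.1 in clone 2 (log2 fold change 0.72, SE 0.14, edgeR adjusted p = 0.00175). Snhg8 was at 1.74 and 2.09 in clone 1 and 4.27 and 3.94 in clone 2 (1.08, SE 0.27, adjusted p = 0.00848). In both hosts the clones did not overlap, which held for 5 of 9 members and for 55.2% of all gene bodies tested. Snhg1 and Snhg8 were 2 of 9 members past the threshold, where 19.6% of gene bodies passed. Fibroblast marker sums ran from 35.99 to 1061 CPM over the 4 control libraries, and astrocyte marker sums from 2.30 to 25.9, and their part was not tested.

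Zfas1, the host of Snord12, which lies antisense to Znfx1, was at 5.42 and 8.83 CPM in clone 1 and 10.1 and 10.9 in clone 2. It missed the threshold by gene bodies (0.56, SE 0.20, adjusted p = 0.0556) and passed by exon sums (0.83, SE 0.24, adjusted p = 0.0197), which made 3 of 9 members, with 18.2% of rows called. The median log2 fold change of the members was 0.36, against -0.01 for all gene bodies. The call of Snhg8 was lost without control clone 1 replicate 1 (0.97, adjusted p = 0.064), while Snhg1 by gene bodies passed without any 1 library. By exon sums all 3 calls were lost without that library (0.61, 0.85 and 0.48 for Snhg1, Snhg8 and Zfas1). Without control clone 2 replicate 1 those of Snhg8 (1.05) and Zfas1 (0.81) were lost, and without control clone 2 replicate 2 those of Snhg1 (0.56) and Zfas1 (0.86).

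When the rows were split, an alternative added after seeing the data, the spliced exons of these 3 hosts passed and their other parts did not. Spliced exons of Snhg1 were at 18.4 and 19.6 CPM of the exon table in clone 1 and 31.4 and 45.6 in clone 2 (log2 fold change 1.02, SE 0.22, edgeR adjusted p = 0.00248), those of Snhg8 at 1.98 and 2.37 against 5.35 and 5.19 (1.26, SE 0.28, 0.00286), and those of Zfas1 at 5.10 and 10.1 against 15.97 and 15.003 (1.01, SE 0.28, 0.0141). Their introns gave 0.45 (SE 0.24), 0.33 (SE 0.59) and 0.56 (SE 0.27) and their snoRNA bins 0.54 (SE 0.22), 0.72 (SE 0.75) and 0.32 (SE 0.42), in the same order and all in the same direction. The difference between exons and introns was not itself tested here. With 20.9% of split rows called, 3 of 9 spliced-exon parts passed. Without control clone 1 replicate 1 the Zfas1 part was at 0.60 (adjusted p = 0.192) and without control clone 2 replicate 1 at 0.97 (0.0701), and without control clone 2 replicate 2 the Snhg1 part was at 0.72 (0.0538).

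**Figure D5:**
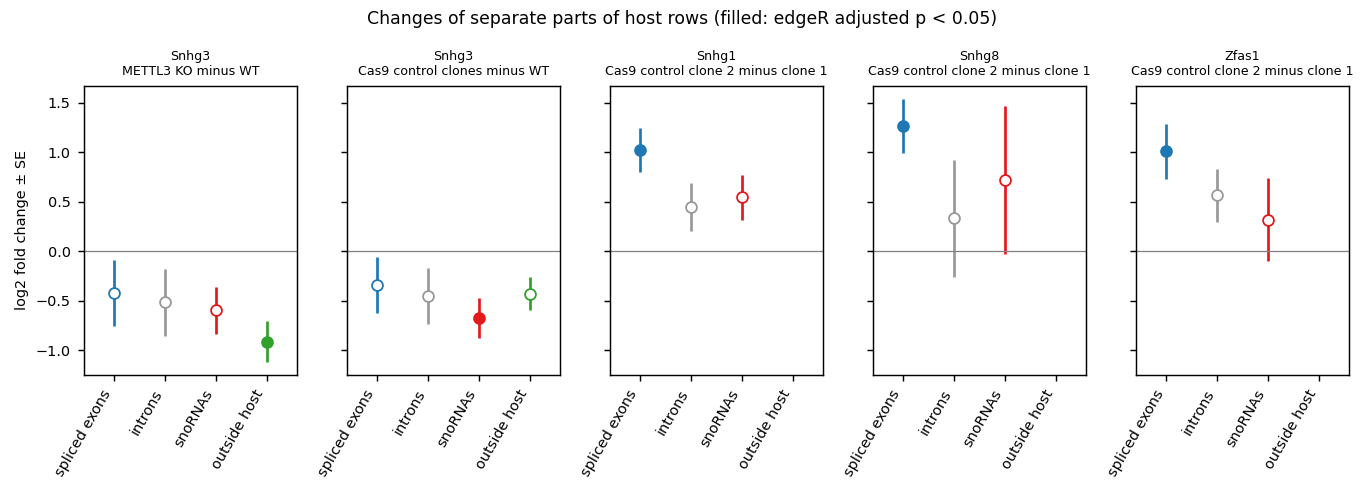
Log2 fold change ± SE (y axis) of the spliced exons, introns, snoRNA bins and bins outside the host (x axis) for Snhg3 in 2 comparisons with WT and for Snhg1, Snhg8 and Zfas1 between the control clones; filled points have an edgeR adjusted p under 0.05. For Snhg3 the part outside the host (-0.91) is filled in METTL3 KO minus WT and the snoRNA bins (-0.68) in controls minus WT, and between control clones the spliced exons of the 3 hosts are filled.

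Between the RBM45 KO clones 0 of 9 members passed by gene bodies (edgeR, 3 at an unadjusted p under 0.05, 0 by DESeq2), with 14.1% of rows called, and 0 by exon sums (also 3 unadjusted, 0 by DESeq2) with 13.6%. Snhg1 was at 20.7 and 21.5 CPM in clone 2 and 16.1 and 15.1 in clone 1 and did not pass (0.44, SE 0.15, adjusted p = 0.0647), and 7 of 9 members had clones that did not overlap by gene bodies and 5 of 9 by exon sums, as did 54.3% and 52.5% of all rows tested. Clone numbers are names and pair no control with a knockout clone. Between the KO rescue clones 0 of 9 passed by either count (2.29% and 1.75% of rows called, and 0 and 1 members at an unadjusted p under 0.05, 0 by DESeq2).

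The exon sum of a host was set against its gene-body count. The ratio of exon sum to gene-body count was 3.30 ± 0.140 (SD, n = 16) for Gas5, 2.81 ± 0.0956 for Snhg1 and 1.04 ± 0.0415 for Snhg3, and 1.31 to 2.22 for the other 6. Values above 1 arise by construction, since a fragment over several bins is counted once for each. The ratio was tested in 6 comparisons with limma, and in 54 tests of members none passed (lowest adjusted p = 0.349, 1 at an unadjusted p under 0.05), with changes between -0.21 and 0.13 on the log2 scale. Over all rows 0.891% passed for METTL3 KO against WT, 0.698% for METTL3 KO against controls, 0% for controls against WT, 0.00779% for RBM45 KO against control, 3.93% for KO rescue against RBM45 KO and 0% for KO rescue against control. On simulated data this test made more false calls than its threshold allows, so these shares may be too high. The smallest unadjusted p was that of Gas5 in RBM45 KO against control, a change of -0.09 (SE 0.04, adjusted p = 0.666). METTL3 KO against WT called Snhg3 by both counts (-0.74 and -0.68, 17.9% of exon sums called).

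Single bins were tested for a shift against the other bins of the same row with diffSpliceDGE of edgeR. No bin of a member passed among 113 tested in METTL3 KO against WT (1 at an unadjusted p under 0.05), 161 in RBM45 KO against control (6) and 161 in KO rescue against RBM45 KO (0). Over all bins 0.0137%, 0.00285% and 0.000712% passed.

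Genes that act on snoRNAs and their hosts were given as lists, of which the counts are read beside the 22.9% of gene bodies called in METTL3 KO against WT and its median of 0.01. Of 30 protein-coding snoRNA hosts 18 fell and 0 rose, with a median of -0.50. Among them Taf1d, a subunit of the RNA polymerase I factor SL1, fell by 0.78 on the log2 scale (SE 0.14, edgeR adjusted p = 0.000745), Hspa9, a mitochondrial chaperone, by 0.94 (SE 0.17, 0.000809) and Cct6a, a chaperonin subunit, by 0.78 (SE 0.13, 0.000709). Of 18 genes of snoRNA particles and their assembly 7 fell and 0 rose (median -0.42), among them Nop56, a box C/D core protein and itself a host, by 0.71 (SE 0.14, 0.00164), and Fbl, the C/D methyltransferase, by 0.69 (SE 0.15, 0.00347).

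Of 14 genes of nonsense-mediated decay, the pathway that degrades several host exons, 4 fell and 1 rose (median 0.02). Upf1, its helicase, fell by 0.49 (SE 0.13, edgeR adjusted p = 0.0104), Smg5 fell by 0.90 (SE 0.14, 0.000277) and Nbas rose by 0.63 (SE 0.14, 0.00358). Of 16 genes of the RNA exosome and intron turnover 5 fell (median -0.36), among them Exosc10, the nuclear exonuclease that trims snoRNA ends, by 0.87 (SE 0.12, 0.000105). Of 9 regulators of TOP transcripts 5 fell (median -0.43), with Eif4ebp1, a translation repressor, by 0.86 (SE 0.25, 0.0198). Of 8 other non-coding hosts tested (12 of 15 matched), 1 fell, Epb41l4aos, by 0.85 (SE 0.27, 0.0315). Against the controls, 10 of 30 protein-coding hosts, 7 of 18 particle genes, 4 of 16 exosome genes, 5 of 14 decay genes (1 rose) and 3 of 9 TOP regulators fell, and 0 of 8 other non-coding hosts, where 30.6% of gene bodies passed. In RBM45 KO against control 0 genes of these lists passed. Fibroblast marker sums differed between METTL3 KO and WT as given above, and their part in these counts was not tested.

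Between members, the levels over the 16 libraries gave 36 pairwise Pearson correlations with a median of 0.28, from -0.58 (Gas5 and Snhg3) to 0.84 (Snhg12 and Snhg3), with 25 above 0. Snhg1 and Snhg8 (0.79) and Snhg1 and Zfas1 (0.77) were among the highest. The values of Snhg3 are those of its row joined with Rcc1 and Snora73a. Replicate 1 was higher than replicate 2 in 8 of 8 groups for Snhg12, in 7 for Snhg3 and in 1 for Gas5. The part of this order in the correlations was not tested. The points share library depth and clone, so these correlations are descriptions. Against the mean profile of the 9 members, the genes most alike among 11699 ranked by Pearson r over the 16 libraries were Lonrf3 (0.85), Trib1 (0.80), Dusp1 (0.79), Epb41l4aos (0.79) and Fam102a (0.79).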

How the data were processed

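Ribosome-depleted total RNA of 16 libraries in 8 groups of 2 was analysed. The deposited values are fragment counts that the authors made with featureCounts 1.6.3 per the file headers, per gene body and per exon bin of a flattened Ensembl 98 annotation and per RefSeq intron, with strand setting 1 and a minimum overlap of 0.1. The submitters' processing notes name HISAT2 2.1.0, mm10 and featureCounts 1.6.5. A fragment was counted in every bin it overlapped, and multi-mapping reads were not counted, since the commands in the headers do not ask for them. The labels name a kit that does not mark strand.

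Columns were matched to groups through their names; those of the Cas9 controls were matched as the only group left, which is less certain, and clone and replicate numbers are names. Symbols came from GENCODE mouse release 21 (53174 of 53333 rows), and 1397 rows join several genes. 0 columns were left unused. Start-site windows came from RefSeq (GRCm38.p6).

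Counts were tested with edgeR 4.0.16 (quasi-likelihood, TMM, filterByExpr, R 4.3.3) with Benjamini-Hochberg adjustment over all rows and a threshold of 0.05. METTL3, WT and clone comparisons used 16 libraries, and RBM45 comparisons used the sums of 2 libraries for each of 6 clones. The ratio of exon sum to gene-body count was tested with limma 3.58.1 on log2 values (pseudocount 0.5, mean of at least 10 counts in both tables). On simulated data that test made more false calls than its threshold allows. A fit weighted by counts was run as an alternative, and its values are not given here. Bins were tested with diffSpliceDGE of edgeR. Shares were compared by an exact permutation test (scipy 1.17.1), over clones in the RBM45 comparisons and over libraries in METTL3 KO against WT.

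Alternatives were DESeq2 1.42.0, RLE size factors, no low-count filter, leaving out the 12 most abundant rows, a replicate block, libraries as units, a pseudocount of 2, a minimum of 30 counts and leaving out each library or clone. The split of rows into parts, the weighted ratio and the shares over all rows were added after the data were seen; these shares used rows of 1 gene besides snoRNAs and the hosts.

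All 9 hosts were named, with snoRNAs in them that reached a mean of 10 counts in a group, up to 4 called genes with the smallest p for each context list and comparison, and the 5 genes most like the hosts. Members and lists were chosen with earlier results of these data known. Library totals of 7193908 to 18751324 set the precision.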

Additional observations from a re-analysis of the deposited data

Results flagged for a closer look

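In RBM45 KO, 1 library stood apart from the other 3 for Snhg12. Its gene-body level was 5.78 CPM in RBM45 KO clone 1 replicate 2 and 9.57 to 9.73 CPM in the others. The gap made up 0.960 of the range of the 4 libraries, above Dixon's 95% critical value for 4 samples. Of 27 sets of 4 libraries tested (9 hosts in 3 conditions) this was the only 1 past that value, and chance flags about 1 in 20 groups.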

How the results depend on the processing

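Counts of called members were recomputed 160 times with 1 library or clone left out (134 within 1.5 times of the reported count, 26 not) and 138 times under other settings (119 and 19). None of the 16 called fold changes changed sign under the settings run for it. For METTL3 KO against WT, gene bodies called 2 members with no low-count filter (Snhg3 and Snhg12), and exon sums and gene bodies each gave 0 to 2 with a library left out. Spliced exons gave 0 to 1 there. For controls against WT, gene bodies called 1 under DESeq2, RLE size factors or no filter (0 to 2 with a library left out), exon sums 2 under DESeq2 or no filter (0 to 2), and spliced exons 0 to 1. For METTL3 KO against controls, exon sums and spliced exons gave 0 to 1. For KO rescue against control with libraries as units, gene bodies called 1, exon sums 2 and spliced exons 1, and for RBM45 KO against control spliced exons called 1 (Snhg1). Between control clones gene bodies gave 1 to 2 and exon sums 0 to 3 with a library left out. Between RBM45 KO clones both gave 0 to 1, and exon sums called 1 with no filter.

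Same-numbered replicates were not treated as paired, since nothing in the labels ties them: the correlation of their deviations over 28 pairs of groups ran from -0.27 to 0.44 (median 0.06), and 12 were over 0.1. Among WT, METTL3 KO and the control clones all 6 were over 0.1 (0.14 to 0.44), as a hint from the data. With a replicate block, METTL3 KO against WT called 2 members by gene bodies (Snhg3 and Snhg12), controls against WT 1 by gene bodies and 2 by exon sums, KO rescue against control 2 by gene bodies, 2 by exon sums and 1 by spliced exons, RBM45 KO against control 1 by spliced exons and KO rescue against RBM45 KO 2 by spliced exons. Replicate 1 was higher in 8 of 8 groups for Snhg12, 7 for Snhg3 and 1 for Gas5 and Zfas1. The causes were not tested. With 2 clones a side, RBM45 comparisons could not bound small changes, and bins of few counts limit the snoRNA values.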

Other observations

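Snora73b, counted in a row of its own, was at 44.8 and 32.96 CPM in WT and 17.7 to 38.7 CPM in the libraries outside WT, so the ranges met. Its mean was 30.6 ± 6.63 CPM in RBM45 KO (SD, n = 4), 25.8 ± 9.14 in Cas9 control and 22.9 ± 3.66 in KO rescue. Neither difference passed the edgeR test (0.28, adjusted p = 0.762 for RBM45 KO against control, and -0.44, adjusted p = 0.662 for KO rescue against RBM45 KO).

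Snhg14, a long non-coding snoRNA host outside the 9, had a log2 fold change of -1.25 (SE 0.22, edgeR adjusted p = 0.000478) in control clone 2 against clone 1, and Epb41l4aos had 1.17 (SE 0.26, adjusted p = 0.00402), so these 2 hosts moved in opposite directions between clones of one genotype.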
